A study of Mus musculus with 6 samples.

Results

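The genes described here are 10 inflammatory cytokine and cytokine receptor genes: the ligand genes Il1a, Il1b and Tnf, and the receptor chain genes Il6ra, Il6st, Il10ra, Il10rb, Tnfrsf1a, Tnfrsf1b and Ifngr1. They were taken by symbol, as a list of named genes, from the 39017 gene identifiers of the deposited count table, and all 10 had a row. The list was chosen with earlier results of these data known. The question was which of these mRNAs were recovered with tagged microglial ribosomes relative to the tissue, and whether the ligand and receptor mRNAs differed in this. The tested libraries were 3 immunoprecipitates (IP), of RNA recovered with anti-HA magnetic beads. They were set against 3 input libraries, of RNA taken with no antibody. All 6 libraries came from hippocampus of female C57BL/6 mice of the genotype Tmem119-Cre:RiboTag, so the input mice carry both alleles too, and no age is given in the labels. RiboTag is an allele of Rpl22, a protein of the large ribosomal subunit, that gains an HA epitope once Cre has acted. Cre is driven here by Tmem119, a gene of microglia, so that beads against HA recover ribosomes and their mRNA from cells in which Cre acted. An IP and an input library that share a title code were treated as a pair. The series title concerns Kdm6a deletion in microglia and a multiple sclerosis model, but the labels of these 6 libraries name neither.

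Interleukin 1 alpha, interleukin 1 beta and tumour necrosis factor are cytokines with which microglia, the resident macrophages of the brain, start and spread inflammation. Their genes are known to be nearly silent in resting cells and to be transcribed in a burst after a danger or microbial signal, and the mRNAs carry AU-rich elements that shorten their life. The receptors work as complexes: IL-6 binds Il6ra, which signals through the shared chain gp130 (Il6st); IL-10 binds Il10ra, which pairs with Il10rb; and interferon gamma binds Ifngr1, which pairs with Ifngr2. Tnfrsf1a and Tnfrsf1b encode the TNF receptors TNFR1, which carries a death domain, and TNFR2, which has none.

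Ligand and receptor genes differed in the sequence at their starts. Promoters were available for 8 of the 10 genes in the RefSeq table on GRCm38.p6, and those of Il10ra and Il10rb are not shown. The 4 sequences printed here are the ones that hold the motif TATAA, the core of the TATA box, and they cover the 250 bases before the annotated start, 5′ to 3′ on the strand of the gene, with each TATAA in capitals. They lie on the minus strand at chr2:129309973-129310222 (Il1a), chr2:129371140-129371389 (Il1b) and chr17:35202008-35202257 (Tnf), and on the plus strand at chr10:19591699-19591948 (Ifngr1).
Il1a: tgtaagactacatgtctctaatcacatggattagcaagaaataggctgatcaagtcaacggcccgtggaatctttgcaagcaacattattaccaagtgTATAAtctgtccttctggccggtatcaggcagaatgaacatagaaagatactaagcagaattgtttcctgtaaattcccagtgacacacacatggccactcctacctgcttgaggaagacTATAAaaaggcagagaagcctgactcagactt
Il1b: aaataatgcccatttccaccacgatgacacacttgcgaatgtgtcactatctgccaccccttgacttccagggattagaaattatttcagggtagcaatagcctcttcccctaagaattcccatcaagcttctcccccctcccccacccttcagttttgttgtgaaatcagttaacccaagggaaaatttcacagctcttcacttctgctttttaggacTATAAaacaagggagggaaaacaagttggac
Tnf: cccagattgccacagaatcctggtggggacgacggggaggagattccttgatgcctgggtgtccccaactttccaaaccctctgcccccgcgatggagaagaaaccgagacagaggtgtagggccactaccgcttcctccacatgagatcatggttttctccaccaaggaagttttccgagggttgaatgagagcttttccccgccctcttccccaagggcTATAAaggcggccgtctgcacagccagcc
Ifngr1: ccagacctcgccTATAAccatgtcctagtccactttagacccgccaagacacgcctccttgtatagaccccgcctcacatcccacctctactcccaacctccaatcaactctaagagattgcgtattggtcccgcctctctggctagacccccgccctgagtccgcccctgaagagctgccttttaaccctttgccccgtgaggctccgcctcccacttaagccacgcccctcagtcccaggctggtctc
The motif began 32 bases before the start in Il1a, 31 in Il1b and 29 in Tnf, and Il1a held another 152 bases before it. In Ifngr1 the 1 match lay 238 bases before the start. None of the windows of Il6ra, Il6st, Tnfrsf1a and Tnfrsf1b held the motif on either strand. Over all 32851 promoters of the table, 22.8% held TATAA somewhere on either strand. A forward TATAA beginning 20 to 40 bases before the start, a span chosen after these matches were seen, was found in 3 of the 3 ligand genes and in 0 of the 5 receptor genes with a promoter. In the same span it was found in 11 of 37 other cytokine genes (29.7%) and in 1 of 54 other receptor genes (1.85%). Counted by gene in the same way, the share was 4.22% over all genes, and it was 3.52% over all promoters. The kappaB consensus motif was searched on both strands, was found in none of the 8 windows and was found in 7.25% of all promoters.

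The ends of the mRNAs differed less neatly by class. In the longest coding transcript of each gene (GENCODE M21), TTATTTATT, the core of an AU-rich element, occurred 5 times in the 3′ UTR of Tnf and 3 times in that of Il10ra, and in no other member. Of 21037 genes with a 3′ UTR, 7.56% held it. The 30 bases with most copies are shown for these 2 genes, 5′ to 3′ on the minus strand, with the element in capitals where copies may overlap, at chr17:35199674-35199703 for Tnf and chr9:45254113-45254142 for Il10ra (GRCm38).
Tnf: ttaTTATTTATTTATTATTTATTTATTtgc
Il10ra: tTTATTTATTTATTtgctcacTTATTTATT
The shorter motif ATTTA occurred 10.5 times per kb of 3′ UTR in Tnf, 8.71 in Il1b, 5.63 in Il10rb and 2.72 in Il1a, against a median of 1.22 over the 21037 genes. It was absent from the 3′ UTRs of Tnfrsf1a and Ifngr1. A match is a description of the sequence and not a tested site.

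The libraries held 10757351 to 18558497 counts in IP and 18448897 to 20422140 in input. No label or note names the aligner, the counter or the strand setting of the counting. All 12 microglia markers were higher in IP, at a median fitted log2 fold of 6.00, while 12 of 12 neuron markers, 10 of 10 astrocyte markers and 10 of 11 oligodendrocyte lineage markers were lower (edgeR, adjusted p below 0.05). RNA of other cells was not absent from the precipitates. Neuron markers summed to 1614 to 1790 CPM in IP against 10203 to 12191 CPM in input. Oligodendrocyte lineage markers summed to 899 to 1480 CPM in IP against 4808 to 7896 CPM in input. Astrocyte markers summed to 503 to 576 CPM in IP against 2539 to 3143 CPM in input. Of the vascular markers, 6 of 10 endothelial and 1 of 10 mural cell markers were higher in IP. The summed endothelial level was 165 to 298 CPM in IP against 17.5 to 58.4 CPM in input. Of the 10 perivascular macrophage markers, 2 were tested. Stab1 was higher in IP, at 454 ± 122 CPM in IP and 5.76 ± 0.12 CPM in input (SD, n = 3 each). The other, with a log2 fold of 2.26, was not called. Cd163, Lyve1, Pf4 and F13a1 had no count in any IP library. The 10 markers of the list summed to 350 to 588 CPM in IP and 6.89 to 8.67 CPM in input. Monocyte and neutrophil markers summed to 0 to 6.16 CPM in IP and 0 to 0.466 CPM in input, with 7 of 11 at 0 in all 6 libraries. Lymphocyte markers summed to 8.15 to 17.5 CPM in IP and 0.308 to 8.64 CPM in input. Of these 13 markers, 2 were tested, of which 1 was higher in IP (log2 fold 7.62) and 1 was not called. CPM is the usual scaled count, with library totals adjusted by TMM factors. A library of beads without antibody, or of mice without the tag, was not analysed here, so RNA that sticks to the beads was not measured. Fewer cells of a type and less RNA per cell cannot be told apart in such bulk RNA.

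Of the 10 genes, 8 had enough counts to be tested, and all 8 were higher in IP. Over the whole table, 23.8% of 16196 tested genes were higher in IP and 23.9% were lower, and the median log2 fold was -0.10. The 8 comprise the 7 receptor chains and Il1a, and their median log2 fold was 5.40. For each of the 8, every IP library was above every input library, as was the case for 29.0% of tested genes. Il1b and Tnf did not pass the filter on low counts.

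Il1a encodes a cytokine that is active as its precursor and works as an alarm signal when cells are damaged. On chromosome 2 (129299610 to 129309972, minus strand, GRCm38), it was at 31.5, 20.3 and 16.4 CPM in IP libraries 1, 2 and 3, against 0.279, 0.052 and 1.08 CPM in input libraries 1, 2 and 3. The groups did not overlap, and the lowest IP value was far above the highest input value. The fitted log2 fold was 5.58 (SE 0.83, edgeR adjusted p = 0.00042), the widest error among the 8 tested genes. Input held only 28 Il1a counts in all, 21 of them in library 3, against 998 counts in IP. Without input library 3 the log2 fold was 6.98, and without that pair 7.17. The ratio of summed CPM was 52.4, with an exact 95% interval of 36.0 to 79.2 that covers counting error only. Il1a shares 222 exon bases with Gm14023, a gene of the opposite strand that had 72, 46 and 38 counts in IP and 11, 11 and 43 in input. The libraries were stranded, but the strand setting of the counting is unknown, so reads of the 2 genes may have been counted together there.

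Il1b, which encodes the cytokine that caspase-1 cleaves and releases, was close to the limit of detection. On chromosome 2 (129364570 to 129371139, minus strand), it had 35, 0 and 0 counts in IP libraries 1, 2 and 3, against 0, 0 and 5 counts in input libraries 1, 2 and 3. One IP library held all of the IP counts, and the groups overlapped. That library had 1.89 CPM, while a count of 0 allows up to 3 counts, or 0.232 and 0.279 CPM, in IP libraries 2 and 3. The same library alone also had counts for Il1bos (17, against 0 in the other 5 libraries), an antisense gene that shares 25 exon bases with Il1b. Of the 10 perivascular macrophage markers, 5 had no count in that library, 6 in IP library 2 and 7 in IP library 3. Stab1 was lowest in it, at 342 CPM, against 584 and 437 CPM in IP libraries 2 and 3, while the other 9 markers summed to 8.80 CPM in it, against 4.09 and 0.841 CPM. The part of such cells in the Il1b counts was not tested. Without the filter, where 17.6% of 21467 genes were higher in IP, its log2 fold was 2.79 and was not called (edgeR adjusted p = 0.44).

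Tnf was as sparse. On chromosome 17 (35199381 to 35202007, minus strand), it had 16, 34 and 0 counts in IP libraries 1, 2 and 3, against 0, 1 and 0 counts in input libraries 1, 2 and 3. Both of the IP libraries with counts were above every input library, and IP library 3 was at 0 like input. In the fit without the filter the log2 fold was 5.68 and was not called (edgeR adjusted p = 0.12). It was called only in the fit without IP library 3, the IP library in which Tnf is at 0 (log2 fold 6.30, adjusted p = 0.026), which therefore does not support a difference. It was not called without pair 3 (5.84, adjusted p = 0.065) or without any 1 input library (adjusted p of 0.13 to 0.22). Over the 50 IP counts and the 1 input count, the ratio of summed CPM was 73.4, with an exact 95% counting interval of 12.6 to 2958.

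**Figure D1:**
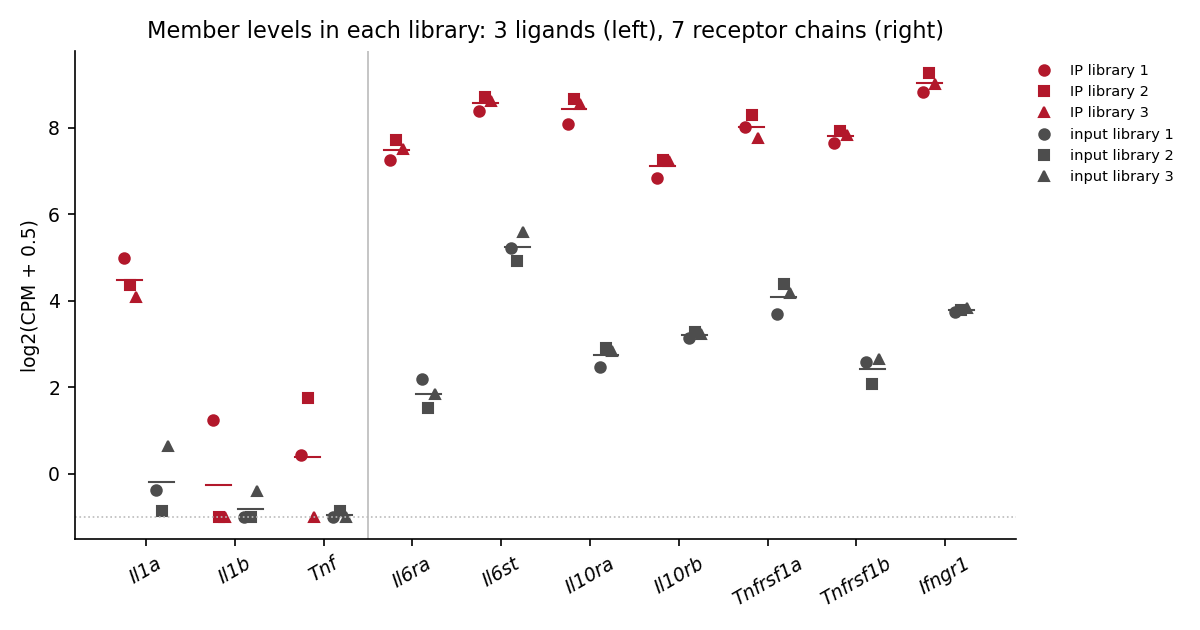
Level of each gene in each library, as log2(CPM + 0.5), with IP (red) left of input (grey) for every gene; symbols mark libraries 1, 2 and 3, and short bars the group means. The dotted line is a count of 0: Il1b and Tnf reach it in both groups, while all 7 receptor chains lie well above input in every IP library.

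The receptor chains were abundant in every IP library. Ifngr1, the chain that binds interferon gamma (chromosome 10, 19591949 to 19610229, plus strand), was at 454, 617 and 518 CPM in IP libraries 1, 2 and 3, against 12.995, 13.3 and 13.8 CPM in input libraries 1, 2 and 3. Input libraries were nearly equal, and the groups were far apart. The log2 fold was 5.31 (SE 0.18, edgeR adjusted p = 1e-07).

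Il10ra, the chain that binds IL-10 (chromosome 9, 45253837 to 45269149, minus strand), was at 271, 403 and 373 CPM in IP, against 5.03, 7.03 and 6.67 CPM in input. Library 1 was the low one in both groups, and the ratio was much the same in every pair, with a mean of 5.69 ± 0.06 on the log2 scale (SD, n = 3 pairs). The fitted log2 fold was 5.81 (SE 0.24, edgeR adjusted p = 1.7e-07). Il10rb, the chain shared by receptors of the wider IL-10 family (chromosome 16, 91406164 to 91425834, plus strand), was at 115, 152 and 151 CPM in IP, against 8.29, 9.27 and 8.87 CPM in input. The groups did not overlap, and the log2 fold was 3.98 (SE 0.20, edgeR adjusted p = 4.5e-07). Values of Il10rb are uncertain, because 569 of its exon bases belong also to the same-strand model Gm21970, which had 1070, 836 and 510 counts in IP and 109, 203 and 116 in input.

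Il6ra, the chain that binds IL-6 (chromosome 3, 89864059 to 89913196, minus strand), was at 153, 212 and 181 CPM in IP, against 4.05, 2.39 and 3.08 CPM in input. No library of one group came near the other, and the log2 fold was 5.83 (SE 0.26, edgeR adjusted p = 2.5e-07). Il6ra shares 242 exon bases with an antisense gene of the opposite strand that has no row in the deposited count table. Il6st, the gp130 chain used by the whole IL-6 family and made by many cell types (chromosome 13, 112464070 to 112510086, plus strand), was at 333, 421 and 393 CPM in IP, against 36.9, 29.7 and 47.7 CPM in input. The groups did not overlap, and the log2 fold was the lowest of the 8 at 3.33 (SE 0.21, edgeR adjusted p = 1.7e-06).

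Tnfrsf1a (chromosome 6, 125349362 to 125362484, plus strand) was at 260, 313 and 218 CPM in IP, against 12.6, 20.5 and 17.7 CPM in input. Tnfrsf1b (chromosome 4, 145213463 to 145246870, minus strand) was at 201, 244 and 228 CPM in IP, against 5.50, 3.70 and 5.80 CPM in input. For both receptors every IP library lay above every input library. The log2 fold was 3.96 for Tnfrsf1a (SE 0.24, edgeR adjusted p = 1.3e-06) and 5.48 for Tnfrsf1b (SE 0.23, edgeR adjusted p = 2e-07).

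Ligands and receptors were then compared within each pair, as the mean log2 ratio of IP over input, each from CPM + 0.5. The receptor mean was 4.57, 4.99 and 4.62 in pairs 1, 2 and 3, and the ligand mean was 3.02, 2.62 and 0.94. With this pseudocount the ligand minus receptor difference was -1.55, -2.37 and -3.68 in pairs 1, 2 and 3, with a mean of -2.54 ± 1.07 (SD, n = 3 pairs). This difference is a description, and it came from Il1b and Tnf: Il1a alone had a mean ratio of 4.67 ± 1.08, between those of the receptors. With counts this low the ratio of Il1b and Tnf is set by the pseudocount, and the difference was -1.77 ± 2.06 with a pseudocount of 0.1 and -3.11 ± 0.52 with 2. With 0.1 the SD was larger than the mean, and pair 1 had no difference (0.01), against -1.29 in pair 2 and -4.03 in pair 3.

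**Figure D2:**
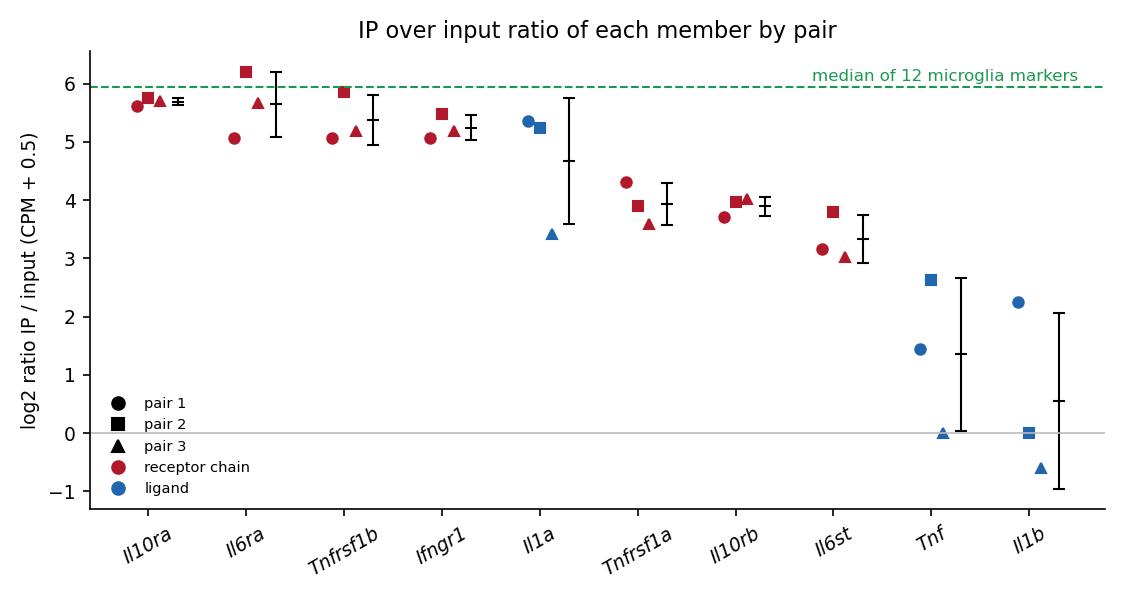
The log2 ratio of IP over input (CPM + 0.5) of each gene in each pair, receptor chains in red and ligands in blue, with mean and SD over 3 pairs as black bars; the dashed line is the median of 12 microglia markers. Il10ra, Il6ra, Tnfrsf1b and Ifngr1 sit just under that line, Tnfrsf1a, Il10rb and Il6st form a lower group, and Tnf and Il1b scatter down to 0 or below.

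Set against the median of the microglia markers in the same pair, the 7 receptor chains fell into a higher and a lower set. The higher set held 4 chains: Il10ra differed from them by -0.25 ± 0.13 on the log2 scale, Il6ra by -0.30 ± 0.55, Tnfrsf1b by -0.57 ± 0.38 and Ifngr1 by -0.69 ± 0.19 (SD, n = 3 pairs). The other 3 were lower, with -2.01 ± 0.30 for Tnfrsf1a, -2.04 ± 0.24 for Il10rb and -2.61 ± 0.34 for Il6st. For the IL-6 and IL-10 receptors, the chain that binds the ligand and the chain shared with other receptors thus had different ratios. Il6ra exceeded Il6st by 2.32 ± 0.37 and Il10ra exceeded Il10rb by 1.79 ± 0.11 on the log2 scale. Tnfrsf1b exceeded Tnfrsf1a by 1.44 ± 0.62. The widest of these 4 gaps was between Ifngr1 and its partner Ifngr2, 4.81 ± 0.14. The IL-1 receptor, whose chains are not members, showed no such gap. Its binding chain Il1r1 differed from the accessory chain Il1rap by 0.36 ± 0.66, with -0.18, 1.09 and 0.16 in pairs 1, 2 and 3.

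Ifngr2, which is no member of the 10 but completes the interferon gamma receptor, was at 162, 158 and 154 CPM in IP, against 122, 108 and 121 CPM in input. The groups did not overlap but were close, and the log2 fold was 0.43 (SE 0.14, edgeR adjusted p = 0.030). That call was lost, at adjusted p of 0.060 to 0.15, on leaving out any library other than IP library 3, or any pair.

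Per kb of exon, the balance of chains of the member receptors in the precipitate therefore differed from that in the tissue. Ifngr1 stood at 4.45 times Ifngr2 in IP (3.70 to 5.18 over 3 libraries), against 0.152 times in input (0.141 to 0.164). Il10ra stood at 2.72 times Il10rb in IP (2.58 to 2.90), against 0.768 times in input (0.661 to 0.826). For both receptors the order of the chains was turned round between the groups. Il6ra stayed below Il6st in both groups, at 0.609 times in IP (0.589 to 0.646) and 0.109 times in input (0.083 to 0.141). Tnfrsf1b stayed below Tnfrsf1a, at 0.587 times in IP (0.524 to 0.709) and 0.214 times in input (0.123 to 0.297). Il1r1 stood at 0.691 times Il1rap in IP (0.376 to 0.868) and 0.536 times in input (0.395 to 0.750), and these ranges overlapped.

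**Figure D3:**
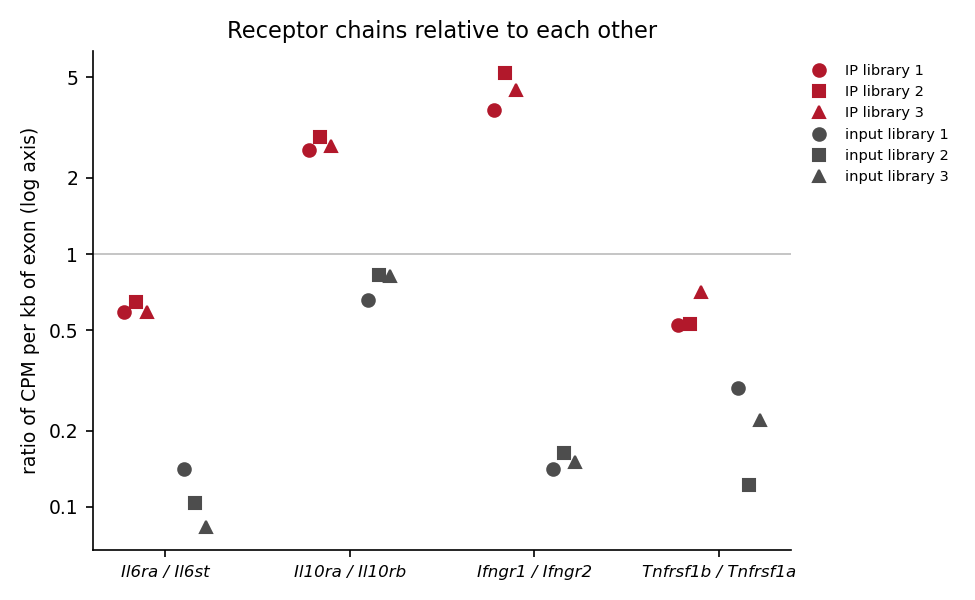
Ratio of CPM per kb of exon between chains of one receptor, or between both TNF receptors, in each library on a log axis, with IP (red) left of input (grey). IP values lie above input values for all 4 ratios, and Il10ra/Il10rb and Ifngr1/Ifngr2 lie above 1 in IP and below 1 in input.

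Levels of different genes were compared as CPM per kb of exon. In IP the order was Ifngr1 (186 ± 29), Tnfrsf1a (102 ± 18), Il10ra (99.8 ± 19.8), Tnfrsf1b (58.7 ± 5.7), Il10rb (36.5 ± 5.6), Il6st (34.4 ± 4.0), Il6ra (21.04 ± 3.41), Il1a (11.5 ± 4.0), Tnf (0.765 ± 0.908) and Il1b (0.330 ± 0.572) (SD, n = 3). Neighbours in this order whose ranges overlapped were Tnfrsf1a and Il10ra, Il10rb and Il6st, and Tnf and Il1b. The mean of Il6ra, the lowest receptor chain, was 1.83 times that of Il1a, and Il1a lay above Tnf and Il1b in every IP library. In input the order was Tnfrsf1a (6.53 ± 1.55), Ifngr1 (4.70 ± 0.14), Il6st (3.43 ± 0.82), Il10rb (2.31 ± 0.13), Il10ra (1.78 ± 0.30), Tnfrsf1b (1.31 ± 0.30), Il6ra (0.367 ± 0.096), Il1a (0.238 ± 0.273), Il1b (0.045 ± 0.078) and Tnf (0.011 ± 0.018). There, Il10ra overlapped Tnfrsf1b, and Il6ra, Il1a, Il1b and Tnf each overlapped the next gene in the order. Ligands made up 3.60%, 1.91% and 1.55% of the summed CPM per kb of the 10 genes in IP libraries 1, 2 and 3, against 0.769%, 0.277% and 2.99% in input libraries 1, 2 and 3. These shares overlapped between the groups.

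The genes most like the members across the 6 libraries were sought among 10391 annotated genes, by the root mean square distance of centred log2(CPM + 0.5). The nearest gene was Fgd2 for Ifngr1 (distance 0.07) and Ptgs1, which encodes cyclooxygenase 1, for Il6ra (0.11). It was Tgfb1, a cytokine on which microglia depend, for Tnfrsf1b (0.13), Shkbp1 for Il6st (0.09), Pla2g15 for Il10rb (0.08), Traf3ip3 for Tnfrsf1a (0.11) and Tlr1, a receptor of bacterial lipopeptides, for Il1a (0.18). Tlr1, like Il1a, averaged 20.1 ± 5.9 CPM in IP and 0.442 ± 0.595 CPM in input (SD, n = 3 each). The nearest gene to Il1b, Nup54, was farther off (0.36), and the counts of Il1b are too sparse for a pattern. With 2 groups of 3 libraries, the distance mostly reflects the size of the IP over input difference.

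Of the ligand genes of these receptors, Il6, Il10, Ifng and Lta were nearly absent. Other ligands of the IL-6 family, which uses Il6st, are described below, and Osm and Clcf1 among them were higher in IP. Il10, Ifng and Lta, which encode IL-10, interferon gamma and lymphotoxin alpha, had no count in any of the 6 libraries. A count of 0 allows up to 0.162, 0.232 and 0.279 CPM in IP libraries 1, 2 and 3, against 0.147, 0.163 and 0.156 CPM in input libraries 1, 2 and 3. These limits use library totals without TMM factors. Il6 had 0, 0 and 23 counts in IP, against 10, 0 and 0 in input. Of the 11 monocyte and neutrophil markers, 8 had no count in the IP library with Il6 counts, and the other 3, S100a9, Plac8 and Ccr2, had 32, 18 and 16 counts there. The list summed to 0, 0.085 and 6.16 CPM in IP libraries 1, 2 and 3, against 0.466, 0 and 0 CPM in input libraries 1, 2 and 3. The part of such cells in the Il6 counts was not tested.

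Among other cytokine genes, 57 of them in the table, 23 had no count in any library and 17 were tested, of which 8 were higher in IP, 3 were lower and 6 were not called (edgeR adjusted p below 0.05). Of 63 other receptor genes, 5 had no count in any library and 43 were tested, of which 20 were higher, 6 were lower and 17 were not called. Both classes thus held genes on either side. For these and for the lists that follow, the shares over all tested genes were 23.8% higher and 23.9% lower.

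The receptor of the IL-1 ligands itself was not among the enriched genes. Il1r1, its binding chain, was at 2.54, 4.52 and 5.98 CPM in IP, against 6.10, 4.32 and 9.70 CPM in input. The groups overlapped, and its log2 fold of -0.63 was not called (edgeR adjusted p = 0.45). Its partner Il1rap, the accessory chain, fell to 11.4 ± 1.9 CPM in IP, against 22.1 ± 2.2 CPM in input (SD, n = 3 each), a log2 fold of -0.95 (adjusted p = 0.022). That call was lost without input library 1 or 3, or without pair 1 or 2 (adjusted p of 0.071 to 0.14). Of 6 tested IL-1 family receptor genes, 1 was higher, 2 were lower and 3 were not called. Il1rl2, a chain of the IL-36 receptor, was the higher one, with 117, 88 and 67 counts in IP against 0, 13 and 0 in input, and a log2 fold of 4.86 (adjusted p = 0.026). Its call was lost, at adjusted p of 0.050 to 0.11, without IP library 1 or 2, input library 1 or 3, or pair 1 or 3, and without input library 2 its log2 fold was 9.77. Il1rapl1, a synaptic member of the family, had 0, 0 and 1 counts in IP against 52, 21 and 72 in input, so that input exceeded IP 98.7 times (exact 95% counting interval 17.4 to 3925). It was called lower (adjusted p = 0.018), but not without input library 1 or 3, or pair 1 or 2 (adjusted p of 0.064 to 0.10). Il1rl1, the IL-33 receptor, had a log2 fold of 4.91 that was not called (adjusted p = 0.079). Without IP library 3, input library 2 or pair 3 it was called (adjusted p of 0.013 to 0.041). Sigirr, an inhibitory member, was not called (log2 fold -0.45, adjusted p = 0.87).

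Of the other IL-1 family cytokines, 2 were tested. Il33, a nuclear alarmin, was at 5.16 ± 4.26 CPM in IP and 45.3 ± 10.7 CPM in input (SD, n = 3 each), a log2 fold of -3.12 (edgeR adjusted p = 0.0061). Without pair 1 or pair 2 this was not called (adjusted p of 0.055 to 0.061). Il18, which caspase-1 also cleaves, had a log2 fold of 0.85 and was not called (adjusted p = 0.097), but limma-voom called it higher (0.90, adjusted p = 0.049).

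In the TNF superfamily, 4 of 6 tested ligands and 7 of 14 tested receptors were higher in IP, and 0 ligands and 2 receptors were lower (edgeR adjusted p below 0.05). Tnfsf12, which encodes TWEAK, was at 71.3 ± 19.6 CPM in IP and 23.4 ± 3.9 CPM in input, a log2 fold of 1.61 (adjusted p = 0.00063). Ltb, the membrane anchor of lymphotoxin, was at 13.4 ± 6.7 CPM in IP and 0.296 ± 0.066 CPM in input, a log2 fold of 5.46 (adjusted p = 0.00017). Its receptor gene Ltbr had a log2 fold of 2.92 (adjusted p = 1.8e-05). Tnfrsf21, a death domain receptor, was the most abundant of the tested receptors of this family in IP, at 347 ± 25 CPM in IP and 179 ± 16 CPM in input, a log2 fold of 0.95 (adjusted p = 0.00042). Tnfrsf9 had no count in IP against 66 in input, at least 15.0-fold lower with the floor set at 3 counts for all IP libraries together (adjusted p = 0.029). Its call was lost, at adjusted p of 0.070 to 0.092, without any 1 input library or any 1 pair.

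Among relatives of Il6st and its ligands, directions were mixed. Of 4 tested receptors that pair with gp130 or belong to its family, Lifr rose (log2 fold 1.61, edgeR adjusted p = 0.0011) and Cntfr, the binding chain for ciliary neurotrophic factor, fell (log2 fold -2.41, adjusted p = 5.4e-05). Il11ra1 (0.54, adjusted p = 0.34) and Osmr (1.32, adjusted p = 0.26) were not called. Of 4 tested ligands of the family, 2 were higher and 1 was lower. Osm, which encodes oncostatin M, had 175, 114 and 84 counts in IP against 5, 0 and 1 in input, a log2 fold of 6.43 (adjusted p = 0.0011). Clcf1 was at 10.4 ± 1.5 CPM in IP and 0.998 ± 0.389 CPM in input (log2 fold 3.37, adjusted p = 0.0017). In the IL-10 family, 8 of 12 genes had no count in any library, and the 2 tested, Il20rb (-1.72, adjusted p = 0.28) and Ifnlr1 (-0.69, adjusted p = 0.82), were not called.

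Receptors of the common chain and other type I families had 10 of 14 tested genes higher and 0 lower in IP, and the median log2 fold was 4.12. Csf3r, the receptor of granulocyte colony stimulating factor, was at 252 ± 37 CPM in IP and 4.32 ± 1.54 CPM in input (log2 fold 5.87, edgeR adjusted p = 5.4e-07). Il4ra was at 228 ± 85 CPM in IP and 5.96 ± 3.55 CPM in input (log2 fold 5.25, adjusted p = 2e-05), and Csf2ra had the lowest called fold (1.75, adjusted p = 2e-04). Of 5 IL-17 receptor genes, Il17ra rose (log2 fold 3.71, adjusted p = 4e-06). Il17rb had no count in IP against 89 in input, at least 20.2-fold lower at the same floor (adjusted p = 0.021), and was not called without any 1 input library or without pair 1 or 2 (adjusted p of 0.060 to 0.081). Il17rc was not called (log2 fold -0.55, adjusted p = 0.62). Of 5 other tested interleukin and colony stimulating factor genes, 2 were higher and 1 was lower. Il16 had a log2 fold of 3.09 (adjusted p = 5.4e-06), Csf1 of 0.30 (adjusted p = 0.42, not called) and Il34, a ligand of the microglial receptor Csf1r, of -1.97 (adjusted p = 0.00041).

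**Figure D4:**
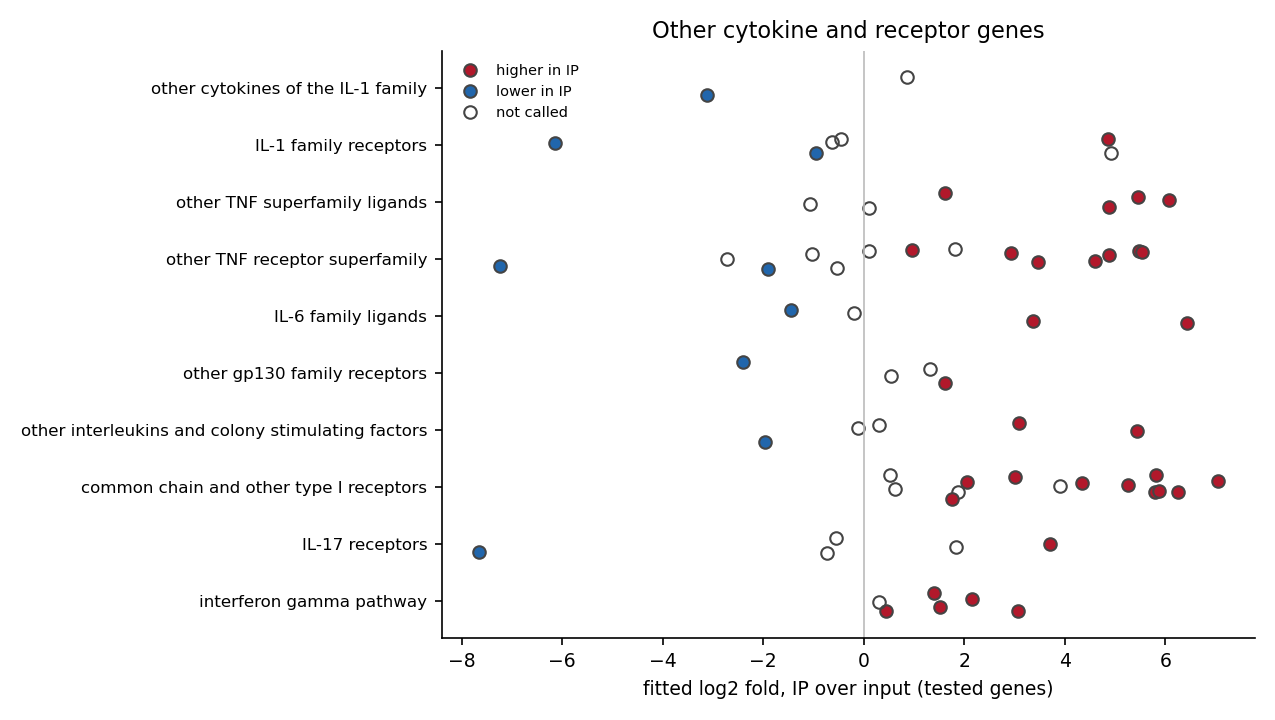
Fitted log2 fold, IP over input, of the tested genes of the related cytokine and receptor families, 1 point a gene, spread vertically for legibility; red points were called higher, blue lower and open points not called. The common chain receptors lie to the right of 0, while IL-1 family receptors and IL-17 receptors lie on both sides; the 3 points left of -6 are Il1rapl1, Tnfrsf9 and Il17rb, with 0 or 1 count in IP.

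Downstream of the receptors, more genes were higher than lower in each pathway list, against 23.8% higher and 23.9% lower over all tested genes. Of 6 tested interferon gamma pathway genes, 5 were higher and 0 lower: besides Ifngr2, these included the kinases Jak1 (log2 fold 1.52, edgeR adjusted p = 4.8e-05) and Jak2 (1.39, adjusted p = 0.0023), and the transcription factor Irf1 (3.07, adjusted p = 5.6e-06). The feedback inhibitor Socs1 was not called (0.31, adjusted p = 0.89). Of 12 IL-1 signalling genes, 9 were higher and 1 was lower. The adaptor Myd88 was at 113 ± 19 CPM in IP and 13.2 ± 1.4 CPM in input (log2 fold 3.11, adjusted p = 2.3e-06), and Tab2 had a log2 fold of 2.29 (adjusted p = 1.3e-05). Tollip, an inhibitor of the pathway, had -0.62 (adjusted p = 0.013), not called without input library 1 or 3, or pair 1 or 3 (adjusted p of 0.050 to 0.15).

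Of 14 tested TNF signalling genes, 10 were higher and 0 lower. Casp8, the protease that TNFR1 can engage, had a log2 fold of 6.05 (edgeR adjusted p = 4.4e-07). Of 10 IL-6 and IL-10 signalling genes, 7 were higher and 0 lower, with Stat3, on which both receptors converge, at 184 ± 37 CPM in IP and 35.4 ± 5.4 CPM in input (log2 fold 2.38, adjusted p = 1.3e-05). The smallest called folds were those of Rbck1 in the TNF list (0.42, adjusted p = 0.033) and Ptpn11 in the IL-6 and IL-10 list (0.50, adjusted p = 0.040). Rbck1 lost its call on leaving out any library other than input library 2, or any pair (adjusted p of 0.051 to 0.17), and Ptpn11 without IP library 2, input library 2 or 3, or any pair (adjusted p of 0.060 to 0.25).

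Of 10 tested genes for cytokine processing and release, 6 were higher and 1 was lower. Adam17, the sheddase that releases TNF and cleaves TNF receptors and the IL-6 receptor, was at 160 ± 12 CPM in IP and 6.60 ± 0.53 CPM in input (log2 fold 4.60, edgeR adjusted p = 1.5e-07). The related Adam10 had a log2 fold of 2.07 (adjusted p = 2.6e-05). Capn2, a calpain of the protease type that cleaves the IL-1 alpha precursor, had -0.79 (adjusted p = 0.019), not called without input library 3, or pair 1 or 2 (adjusted p of 0.065 to 0.11).

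Of 9 genes for proteins that bind or degrade AU-rich cytokine mRNAs, 8 were higher and 0 lower. Zfp36l2 was at 283 ± 31 CPM in IP and 26.9 ± 1.1 CPM in input (log2 fold 3.40, edgeR adjusted p = 3.3e-07), Khsrp had a log2 fold of 0.89 (adjusted p = 0.0018) and Hnrnpd of 0.67 (adjusted p = 0.031). Hnrnpd was not called without IP library 1 or 3, any 1 input library, or pair 1 or 3 (adjusted p of 0.074 to 0.21). Immediate early genes, which cell handling can induce within minutes, went the other way on balance. Of 18 tested, 4 were higher, 7 were lower and 7 were not called, and the median log2 fold was -0.99. The part of cell handling in these values was not tested. Jund was at 266 ± 33 CPM in IP and 475 ± 57 CPM in input (log2 fold -0.84, adjusted p = 0.0017), and Ier5 had a log2 fold of 1.36 (adjusted p = 0.00068). Fos was at 2.70, 4.69 and 0.093 CPM in IP, against 14.2, 13.8 and 37.5 CPM in input (log2 fold -3.12, adjusted p = 0.018). Its call was lost without IP library 1, input library 3, or pair 1 or 2 (adjusted p of 0.054 to 0.090), its log2 fold was -3.90 without IP library 2, -4.14 without pair 2 and -2.51 without input library 3, and it was -1.96 without pair 3.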

How the data were processed

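RNA of 3 IP and 3 input libraries was compared, with groups taken from the sample titles. Libraries were stranded and enriched for mRNA, per the labels' protocols. The submitters' processing notes name mm10, Trimmomatic, FastQC and bcl2fastq 2.17; the aligner and counter are not given in the sources. The authors deposited whole-number counts per gene, not normalized. GENCODE M21 named 37607 of the 39017 identifiers.

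The counts were tested with edgeR 4.0.16 (R 4.3.3; glmQLFit and glmQLFTest, robust, TMM, filterByExpr minimum count 10, no block), over all 16196 genes that passed the filter. Benjamini-Hochberg adjusted p below 0.05 was called. Folds are IP over input (prior count 0.125). The labels do not say that title codes are separate animals, so p-values measure only the spread between these samples, which may be technical. Pair ratios used a pseudocount of 0.5 CPM. Intervals and floors cover counting error only. All IP libraries were above all input libraries for 29.0% of tested genes and below them for 32.9%.

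The members, gene lists and alternatives were chosen with earlier results of these data known. Named genes were the members, all tested genes of the lists closest to the member receptors (their ligands, IL-1 family and gp130 family receptors, the interferon gamma pathway), the most abundant pair and the called gene of lowest fold of each other list, leading cell markers, and the nearest gene to each member; Il1bos, Gm14023, Gm21970, Osm and the zero-count genes were added after their values were seen. Some genes that this rule takes are not reported here. Alternatives included DESeq2 1.42.0 and limma 3.58.1 (voom). The fit was tested on simulated counts. Summaries and plots were made with Matplotlib 3.10.9, SciPy 1.17.1, NumPy 2.4.6 and pandas 2.3.3 under Python 3.11.15.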

Additional observations from a re-analysis of the deposited data

How the results depend on the processing

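All 8 tested members kept their direction and call under the 18 alternatives: other scaling, no filter or a minimum count of 50, DESeq2, limma-voom, a replicate block, another prior count, a 2-fold minimum, and leaving out each library or pair. Their largest adjusted p was 0.021, for Il1a, whose log2 fold ranged from 5.002 to 7.17 and was 6.29 by limma-voom. The count of members higher was 8, or 9 where IP library 3, with no Tnf count, was left out. Upper quartile scaling moved the median log2 fold of all genes by -0.13, and Ifngr2 (adjusted p = 0.098), Hnrnpd (0.075), Ptpn11 (0.094) and Rbck1 (0.11) were then not called. Without the filter, Ifngr2 (0.053), Rbck1 (0.060) and Tnfrsf9 (0.063) were not called. Against the 2-fold minimum, 17 named genes lost their call, among them Il1rl2 (0.051), Tnfrsf9 (0.052), Ier5 (0.068), Jak2 (0.092), Il1rap (0.60), Tnfrsf21 (0.66), Khsrp (0.80), Capn2 (0.88) and Jund (0.92), and Ifngr2, Rbck1, Ptpn11, Hnrnpd and Tollip (1.0 each). Over the whole table, the 2-fold minimum left 2176 genes higher and 2021 lower. Leaving out libraries or pairs gave 2782 to 3910 higher and 2467 to 4192 lower genes, with 2467 lower without pair 1. Of the other pathway genes, 73 were higher and 18 lower. Against the 2-fold minimum, 53 of them were higher and 12 lower. There, 3 interferon gamma pathway, 5 IL-1 signalling and 6 TNF signalling genes stayed higher. Leaving out libraries or pairs gave 58 to 74 pathway genes higher and 10 to 19 lower. The count of lower genes was 11 without input library 3 and 10 without pair 1 or pair 2. The ligand minus receptor difference was -3.62 as a difference of medians over members, and -3.03 to -1.96 on leaving out libraries or pairs; the cause of these shifts was not tested.

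Deviations of libraries with the same title code correlated at 0.06, 0.25 and 0.18 over 11180 genes, against -0.20 to 0.03 for libraries of different codes, and the best match of every library was the one of its own code. With the replicate block, 8 members and 71 pathway genes were higher and 14 pathway genes lower; the calls of Fos (adjusted p = 0.069), Il1rapl1 (0.059), Il17rb (0.10) and Tnfrsf9 (0.14) were lost. Il1b, Tnf and Il6 had 0 counts in some libraries of each group. Of the IP libraries, Il6 was counted only in the shallowest, where Il1b and Tnf were at 0. Il1b was counted only in the deepest IP library. The part of depth in these zeros was not tested.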
